A study of Mus musculus with 2 samples.

Results

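The CD209 lectin family comprised 6 genes, Cd209a, Cd209b, Cd209d, Cd209e, Cd209f and Cd209g, out of 31053 genes in the deposited matrices. The genes were selected on their measured HFD over CD ratio and on their levels among macrophage gates in these same cells, and then taken by symbol, so these values are descriptions with no test. Cd209c, which lies in the same cluster of genes, was not a member.

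CD209 proteins are C-type lectins, receptors that bind sugars at the cell surface through a calcium-dependent domain. Human DC-SIGN, the best known of them, sits on dendritic cells and macrophages, binds mannose and fucose on pathogens and on host glycoproteins, and carries its cargo into the cell. The mouse has several related genes in a cluster, of which Cd209a is closest to DC-SIGN in its use as a marker of dendritic cells and Cd209b encodes SIGNR1, a receptor for polysaccharides on macrophages of the spleen and peritoneum. Cd209d encodes SIGNR3, Cd209e SIGNR4, Cd209g SIGNR7 and Cd209f SIGNR8, and Cd209f and its neighbours are used as marker genes of tissue-resident macrophages.

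Adipose tissue macrophages (ATMs), sorted as CD45+Lin-Ly6Clow/-F4/80+ cells from the epididymal adipose tissue of male C57/BL6 mice of 8 to 12 weeks, had been profiled by droplet-based scRNA-seq. One library came from 3 pooled mice kept on a control diet (CD, 11 kcal% fat) and the other from 3 pooled mice given a high fat diet overnight (HFD, 58 kcal% fat). Diet and library could not be told apart, so no p-value was computed, and every interval below is a 95% interval for counting error alone. A unique molecular identifier (UMI) stands for 1 captured RNA molecule, counted near its 3′ end and therefore not divided by gene length, and levels are UMIs per 1000000 UMIs of the same cells (CPM).

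Of 4459 CD and 3163 HFD barcodes, 2364 and 2021 had 200 to 3500 genes and at most 10% mitochondrial UMIs and were kept, with medians of 4490.5 and 2792 UMIs. The kept cells held 12284010 CD and 8086475 HFD UMIs, and 7 barcodes were kept in both libraries. Doublets were not called. Markers defining macrophages summed to 6129 CPM in CD and 3578 CPM in HFD, and those of B cells, T or NK cells and neutrophils to at most 6.92 CPM. Resident macrophage markers stood at 3282 and 1210 CPM, monocyte markers at 38.3 and 107, dendritic cell markers at 178 and 220, markers of lipid-associated macrophages at 117 and 83.0, endothelial markers at 8.95 and 8.29, peritoneal macrophage markers at 19.9 and 42.9, stromal markers at 64.2 and 3.83, mesothelial markers at 0.570 and 0, and erythroid markers at 611 and 703 CPM.

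The 6 genes lie on chromosome 8 between positions 3743397 and 4137707 of GRCm38, a span of 394 kb, with 5 on the minus strand and Cd209g on the plus strand. Cd209a is at chr8:3743397-3748984, Cd209e at chr8:3847965-3854309, Cd209d at chr8:3871824-3878555, Cd209b at chr8:3917655-3926844, Cd209f at chr8:4102787-4105835 and Cd209g at chr8:4134098-4137707, by GENCODE annotation. Windows of 300 bases around the start of each gene, 250 before and 50 after, were found for 6 members in RefSeq (GRCm38.p6). Cd209f and Cd209g, head to head and 28.3 kb apart, had windows that aligned over 260 columns with 242 identical (93.1%), and shared a run of 180 bases. The other 14 pairs of members aligned over 31 to 174 columns, with exact runs of 7 to 17 bases. The parts before the first coding transcript are shown for this pair because they had the most alike levels across cells (below). The Cd209f part is chr8:4105836-4106014 on the minus strand, upstream of the gene, and the Cd209g part is chr8:4134486-4134651 on the plus strand, upstream of the coding transcript and inside a longer non-coding transcript with a retained intron. Capitals mark the longest run that both parts share, 83 bases.

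Cd209f: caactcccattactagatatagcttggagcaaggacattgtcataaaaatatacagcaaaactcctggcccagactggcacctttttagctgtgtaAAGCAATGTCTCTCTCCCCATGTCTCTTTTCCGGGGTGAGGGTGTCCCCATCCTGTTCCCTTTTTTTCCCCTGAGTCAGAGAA

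Cd209g: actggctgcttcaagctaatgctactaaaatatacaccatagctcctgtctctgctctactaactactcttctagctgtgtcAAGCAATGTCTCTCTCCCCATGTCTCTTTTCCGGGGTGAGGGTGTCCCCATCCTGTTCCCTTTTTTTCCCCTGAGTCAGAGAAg

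Cd209a and Cd209d are shown beside them because Cd209a had the pattern across cells least like the other members, while Cd209d, the member most like Cd209a, was lower in HFD by about as much as Cd209f. The Cd209a part is chr8:3748985-3749104 and the Cd209d part chr8:3878556-3878675, both on the minus strand and directly upstream of the gene. Capitals mark TTCCGG.

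Cd209a: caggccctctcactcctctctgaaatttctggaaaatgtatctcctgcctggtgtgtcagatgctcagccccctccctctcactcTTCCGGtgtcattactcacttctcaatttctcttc

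Cd209d: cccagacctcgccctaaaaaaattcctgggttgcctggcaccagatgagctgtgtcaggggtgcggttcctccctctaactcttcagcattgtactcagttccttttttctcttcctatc

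TTCCGG was searched on both strands (CCGGAA on the other), after the windows had been read. It was found in the windows of 5 of the 6 members, all but Cd209d, and in 14.9% of 32851 windows of the same length. Its matches lay 35 to 30 bases before the RefSeq start in Cd209a, 38 to 33 in Cd209b, 111 to 106 in Cd209e, 126 to 121 in Cd209f and 140 to 135 in Cd209g. A match is a description of the letters and not a binding site. Likeness between Cd209f and Cd209g also touched their transcripts, which shared an exact run of 416 bases, but the last 500 bases, where the reads lie, shared no run longer than 29 bases.

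Every member had a lower level in HFD than in CD. The 6 genes together gave 20802 UMIs in CD (1693 CPM) and 3194 in HFD (395 CPM), 4.29-fold lower (4.13 to 4.45). At least 1 UMI of a member was seen in 81.0% of CD cells and 43.7% of HFD cells. In sums over all kept cells, fewer cells of a type and less RNA per cell cannot be told apart.

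Cd209f, the marker of resident macrophages, was at 796 CPM in CD (9772 UMIs) and 146 CPM in HFD (1184 UMIs), a log2 ratio of HFD over CD of -2.44 (-2.53 to -2.35), or 5.43-fold lower. Cd209d was at 342 CPM in CD and 63.7 CPM in HFD, a log2 ratio of -2.43 (-2.56 to -2.29). These genes had the lowest ratios of the family, and their intervals overlapped. Cd209g was at 276 CPM in CD and 69.7 CPM in HFD (log2 ratio -1.98, -2.12 to -1.86). Cd209b, the gene of SIGNR1, was at 140 CPM in CD and 40.2 CPM in HFD (log2 ratio -1.80, -1.97 to -1.63). Cd209a differed least of the well-counted members: 134 CPM in CD (1650 UMIs) and 72.7 CPM in HFD (588 UMIs), a log2 ratio of -0.89 (-1.02 to -0.75). Its interval lay above those of Cd209b, Cd209d, Cd209f and Cd209g.

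Cd209e was the sparsest member, at 5.29 CPM in CD (65 UMIs) and 2.23 CPM in HFD (18 UMIs), with at most 2 UMIs in a cell and a log2 ratio of -1.25 (-2.09 to -0.48). Cd209c, just outside the family as defined here, was at 4.23 CPM in CD (52 UMIs) and 4.45 CPM in HFD (36 UMIs), with an interval of the log2 ratio from -0.58 to 0.71. In all, 5 of the 6 members had a log2 ratio of -1 or lower, and 2.48% of the 8708 genes with at least 100 UMIs did, among which Cd209e, with 83 UMIs, was not. The members were chosen with this contrast seen, so nothing is read from that difference. Among those genes, counted from the lowest ratio, Cd209f ranked 11, Cd209d 12, Cd209g 23, Cd209b 41 and Cd209a 268, and the median gene had a log2 ratio of -0.01.

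The share of cells with a UMI was lower in HFD for each member. For Cd209f this share was 62.1% of CD and 23.0% of HFD cells, for Cd209d 53.2% and 15.1%, and for Cd209g 48.4% and 16.5%. For Cd209a it was 29.9% and 11.3%, for Cd209b 29.1% and 9.40%, and for Cd209e 2.45% and 0.841%. The order of the shares was not that of the levels throughout. In HFD, Cd209a had a smaller share than Cd209g and Cd209d but a higher level (72.7 against 69.7 and 63.7 CPM). HFD cells were shallower, so each cell was also thinned to 1000 UMIs, which left out 52 CD and 267 HFD cells. Cd209f was then seen in 40.7% of the CD cells (interval 38.6 to 42.7) and in 14.99% of the HFD cells (interval 13.4 to 16.8), Cd209d in 28.2% and 8.49%, Cd209g in 24.05% and 9.64%, Cd209b in 13.3% and 5.64%, Cd209a in 12.3% and 6.04%, and Cd209e in 0.735% and 0.171%. The order of the diets was the same for each member with and without thinning.

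Free RNA in droplets gives UMIs in cells that do not use a gene, and its level was read from cells with at least 2 UMIs of Plac8, a gene high in monocytes, and no Folr2, Lyve1 or Timd4 UMI. Among 9 such CD cells (median 3416 UMIs), Cd209f had 4 UMIs in 4 cells, 44.4% (13.7 to 78.8), or 93.6 CPM (25.5 to 240), Cd209d and Cd209g 1 UMI each, and the other members 0, which allows a share of up to 33.6%. Among 28 such HFD cells (median 4542.5 UMIs), Cd209d had 2 UMIs, Cd209f 1 UMI, or 7.60 CPM (0.192 to 42.3), and the other members 0, which allows up to 12.3%. The CPM of Cd209f in these cells lay below that of all kept cells in both libraries, whereas its unthinned share in CD could not be separated from background with 9 cells. After thinning, Cd209f was seen in 0 of the 9 and 0 of the 28 cells. In 6 CD and 3 HFD erythroid or stromal cells no member had a UMI, at a depth where 3 UMIs would give 69.4 CPM in CD and 344 CPM in HFD.

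Levels were next read in gates set by marker UMIs, which can overlap. Timd4+ cells carry Tim4, a receptor for phosphatidylserine, Lyve1+ cells a hyaluronan receptor of resident macrophages, and Folr2+Lyve1- cells a folate receptor without it. Lyz1-high cells had at least 10 UMIs of Lyz1, a lysozyme gene abundant in recently recruited cells, and Ccl17+ or Flt3+ cells had a UMI of these dendritic cell genes. The gates held 368 CD and 72 HFD cells (Timd4+), 1172 and 415 (Lyve1+), 872 and 581 (Folr2+Lyve1-), 555 and 672 (Lyz1-high) and 42 and 41 (Ccl17+ or Flt3+). As shares of kept cells, Lyve1+ cells were 49.6% in CD and 20.5% in HFD, Timd4+ cells 15.6% and 3.56%, and Lyz1-high cells 23.5% and 33.3%. Gates that need 1 UMI depend on depth.

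**Figure D1:**
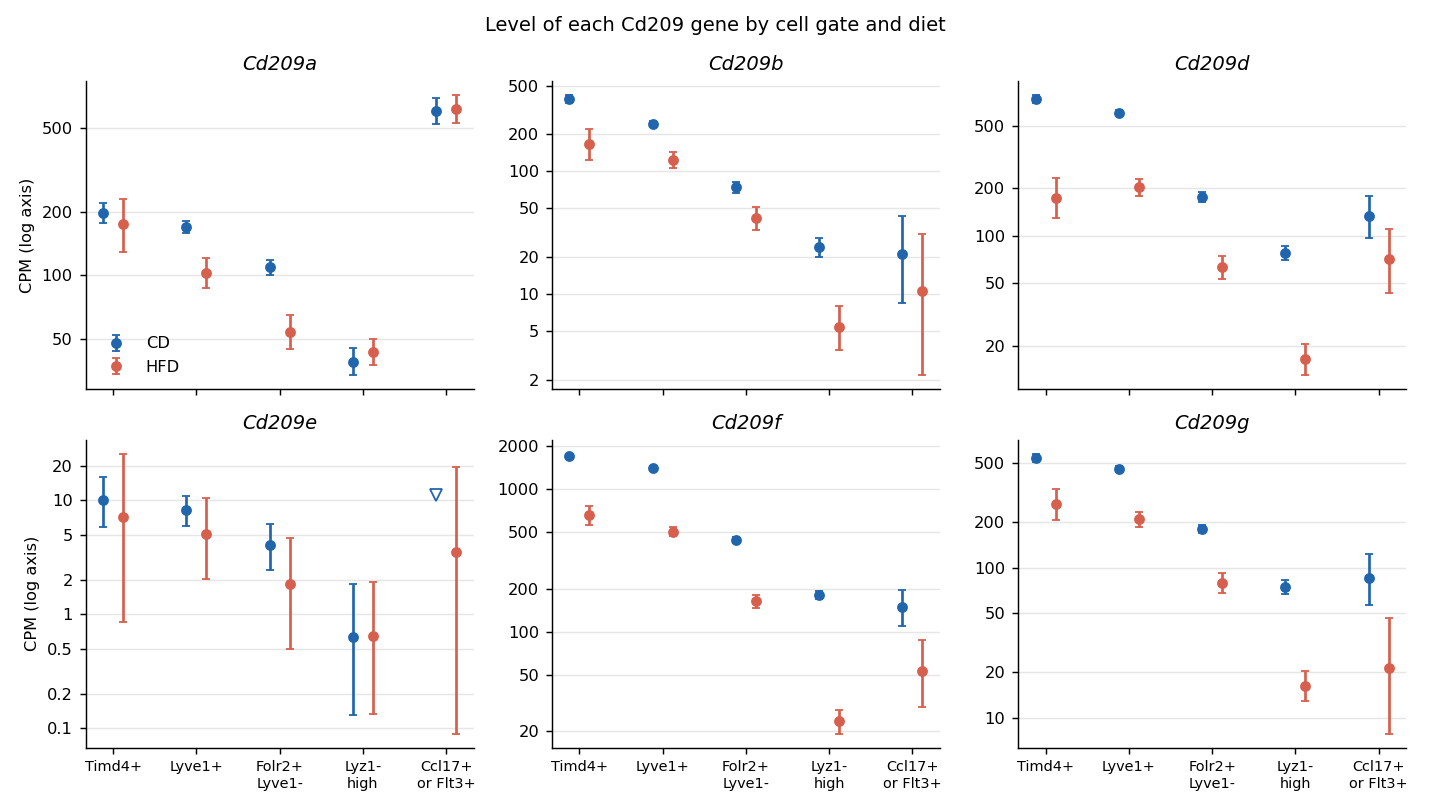
Level of each Cd209 gene in 5 gates, in CPM on log axes that differ between panels, with CD in blue, HFD in red and bars for exact 95% Poisson intervals (open triangle, the upper bound of that interval where no UMI was counted). Cd209b, Cd209d, Cd209f and Cd209g stood lowest in Lyz1-high or dendritic gates, and Cd209a stood highest in Ccl17+ or Flt3+ cells, at 600 CPM in CD and 617 CPM in HFD.

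In both libraries the members were higher in Lyve1+ than in Lyz1-high cells. With cells of both gates left out (123 CD and 54 HFD), Cd209f was at 1620 CPM in Lyve1+ and 87.0 CPM in Lyz1-high cells of CD, a log2 ratio of 4.22 (4.06 to 4.39). In HFD it was at 709 CPM and 17.4 CPM, a log2 ratio of 5.35 (5.0 to 5.72). The corresponding ratios in CD and HFD were 3.98 and 5.16 for Cd209b, 3.72 and 4.34 for Cd209d, and 3.59 and 4.53 for Cd209g. Cd209a had smaller ratios, 2.70 in CD (2.41 to 3.00) and 1.5 in HFD (1.12 to 1.87). For Cd209e the ratios rested on 42 and 1 UMIs in CD (5.17, 2.61 to 10.51) and on 7 and 3 UMIs in HFD (3.39, 1.26 to 5.98). A log2 ratio of 1 or higher was met in both libraries by the 5 members with at least 100 UMIs, as by 12.5% of 6367 such genes in CD and 10.0% of 4808 in HFD, and by Cd209e, which was not among the genes compared. The Lyz1-high levels in these ratios were low: those of Cd209f lay within the intervals of the Plac8 cells, and those of the other members lay below the upper bounds of the Plac8 cells, except for Cd209a in HFD (37.7 CPM against an upper bound of 28.0). With that exception, the Lyz1-high levels were not separable from this background. It rested on 9 CD and 28 HFD cells, too few to decide whether these levels lay above it.

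Among the macrophage gates, the levels of Cd209b in CD went from 388 CPM in Timd4+ cells to 242 CPM in Lyve1+, 74.1 CPM in Folr2+Lyve1- and 24.2 CPM in Lyz1-high cells. Cd209d took the same order in CD (739, 602, 176 and 77.7 CPM), as did Cd209f (1699, 1394, 437 and 180 CPM) and Cd209g (539, 454, 181 and 74.6 CPM). The step from Timd4+ to Lyve1+Timd4- cells was largest for Cd209b, with a log2 ratio of 1.11 (0.95 to 1.26) in CD, while those of Cd209a, Cd209d, Cd209f and Cd209g were 0.36 to 0.50. In HFD, Cd209a had a log2 ratio of 0.86 for this step, but without Ccl17+ or Flt3+ cells, which took 3 Timd4+ cells out, it stood at 86.9 CPM in Timd4+ and 96.4 CPM in the other Lyve1+ cells. Cd209b had a ratio of 0.64, Cd209f 0.56 and Cd209g 0.49. Cd209d had one of -0.10 (-0.58 to 0.35), so that its levels in the pair of gates, 175 and 188 CPM, were not separable. Some Timd4+ cells held peritoneal macrophage markers (below). Without cells holding a UMI of these markers, HFD Timd4+ levels were 222 CPM for Cd209b, 791 for Cd209f, 317 for Cd209g and 227 for Cd209d. Lyve1+Timd4- cells of HFD, not filtered in this way, had 107, 443, 188 and 188 CPM. The step from Lyve1+ to Folr2+Lyve1- cells had intervals that overlapped between the libraries for these 5 members, with log2 ratios for Cd209f of 1.67 in CD and 1.62 in HFD, for Cd209d of 1.77 and 1.68, for Cd209b of 1.71 and 1.58, for Cd209g of 1.32 and 1.41, and for Cd209a of 0.64 and 0.93.

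Cd209a was the only member above its Lyve1+ level in Ccl17+ or Flt3+ cells, among the 6 members and in both libraries. It was at 600 CPM in CD (198 UMIs, 42 cells) and 617 CPM in HFD (174 UMIs, 41 cells) in that gate. With cells of both gates left out, its log2 ratio over Lyve1+ cells was 1.95 (1.71 to 2.18) in CD and 2.66 (2.32 to 3.00) in HFD. Those of Cd209f were -4.82 and -4.73, of Cd209g -4.68 and -3.81, of Cd209b -3.79 and -4.06, and of Cd209d -2.29 and -1.84. Cd209d was the least depleted of these members in both libraries. Cd209e had 0 UMIs in CD and 1 UMI in HFD in the gate. Cd209c, not a member, was also above its Lyve1+ level there with cells of both gates left out. Its log2 ratio was 1.43 (-0.54 to 2.94) in CD, on 4 UMIs in the gate, and 2.84 (0.96 to 4.84) in HFD, on 7.

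The make-up of the family differed between gates. Cd209a gave 5.94% of the family's UMIs in Lyve1+ cells of CD and 9.01% in those of HFD, and Cd209f gave 48.5% and 43.7%. In Ccl17+ or Flt3+ cells, Cd209a gave 60.7% in CD and 79.5% in HFD, and Cd209f 15.03% and 6.85%. In Lyz1-high cells, the share of Cd209a was 9.86% in CD and 41.1% in HFD, while that of Cd209f was 45.4% and 22.2%. Of all Cd209a UMIs, 915 of 1650 in CD and 142 of 588 in HFD were in Lyve1+ cells. Folr2+Lyve1- cells held 543 and 118, and Ccl17+ or Flt3+ cells 198 and 174, in gates that can overlap.

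**Figure D2:**
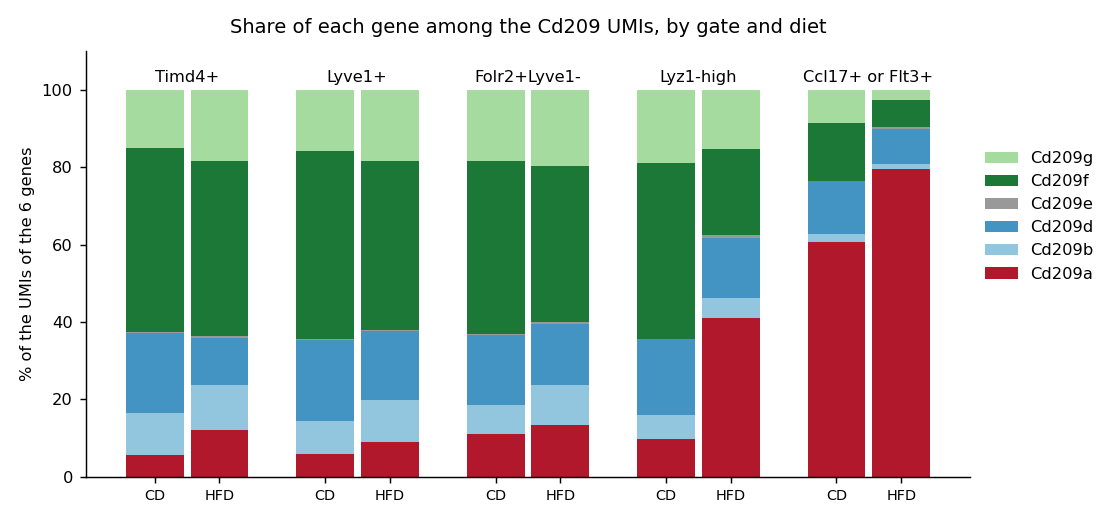
Share of each member in the UMIs of the family, in percent, by gate and diet, with each bar summing to the whole family. Cd209f made up 40.4% to 48.5% of the family in Timd4+, Lyve1+ and Folr2+Lyve1- cells of both diets, and Cd209a made up most of it in Ccl17+ or Flt3+ cells.

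Between the diets, the family as a sum differed within gates by less than over all kept cells. Its summed level was 2871 CPM in CD and 1144 CPM in HFD in Lyve1+ cells, a log2 ratio of -1.33 (-1.40 to -1.25). The ratio was -1.31 in Timd4+ cells, -1.29 in Folr2+Lyve1- cells, -1.90 in Lyz1-high cells and -0.35 (-0.60 to -0.10) in Ccl17+ or Flt3+ cells, against -2.10 over all kept cells. Single members could have a lower ratio in Lyz1-high cells than over all kept cells. This held for Cd209f (-2.94 against -2.44), Cd209g (-2.19 against -1.98) and Cd209b (-2.15 against -1.80), but not for Cd209a and Cd209d. For Cd209g and Cd209b the intervals of these ratios overlapped. The Lyz1-high levels of Cd209f, 180 CPM in CD and 23.5 CPM in HFD, lay within the intervals of the Plac8 cells. Without cells of any other gate, the Lyz1-high ratio was -1.76 for Cd209f, -1.09 for Cd209g and -1.84 for Cd209b.

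In Lyve1+ cells, Cd209f was at 1394 CPM in CD and 500 CPM in HFD, a log2 ratio of -1.48 (-1.59 to -1.37). Cd209d was at 602 and 203 CPM (-1.57, -1.75 to -1.40) and Cd209g at 454 and 210 CPM (-1.11, -1.29 to -0.94). These were the 3 members with a log2 ratio of -1 or lower, which 1.68% of 6073 genes had, and again the members had been chosen with this contrast seen. Cd209b was at 242 and 124 CPM (-0.97, -1.20 to -0.73), Cd209a at 170 and 103 CPM (-0.72, -0.99 to -0.47), and Cd209e at 8.19 and 5.08 CPM, with an interval of the log2 ratio from -2.08 to 0.47. Other markers moved within this gate too. Resident macrophage markers stood at 5476 CPM in CD and 3108 CPM in HFD and Folr2 at 1931 and 794, but Cd163 at 409 and 488. Monocyte markers stood at 5.59 and 36.3 CPM. Dendritic cell markers stood at 55.3 and 152 CPM, of which Ccl17 gave 1.49 and 74.8. Napsa (18.6 and 42.1 CPM) and Klrd1 (0.186 and 3.63 CPM) were also higher in HFD. H2-DMb2 stood at 34.8 and 31.2 CPM, and Flt3 was close to absent (0.186 and 0 CPM). Only 2 of the Lyve1+ cells of HFD were Ccl17+ or Flt3+. The part of these markers in the ratios was not tested.

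In Folr2+Lyve1- cells, Cd209d was at 176 CPM in CD and 63.1 CPM in HFD (-1.48), Cd209f at 437 and 162 CPM (-1.43), Cd209g at 181 and 78.7 CPM (-1.20) and Cd209b at 74.1 and 41.6 CPM (-0.83). Cd209a was at 109 and 54.0 CPM (-1.02), and at 77.8 and 48.7 CPM (-0.68, -1.01 to -0.35) without cells that were also Timd4+, Ccl17+ or Flt3+. Cd209e was at 4.03 and 1.83 CPM, with an interval from -3.15 to 0.44. In Lyz1-high cells, Cd209f was at 180 CPM in CD and 23.5 CPM in HFD (log2 ratio -2.94), Cd209d at 77.7 and 16.5 CPM (-2.23), Cd209g at 74.6 and 16.3 CPM (-2.19) and Cd209b at 24.2 and 5.44 CPM (-2.15). Cd209a was at 39.1 CPM in CD and 43.5 CPM in HFD there, with an interval of the log2 ratio from -0.14 to 0.45, and Cd209e had 3 UMIs in both libraries. This gate overlapped the others unevenly, and without cells of any other gate (157 CD and 464 HFD cells left) Cd209f was at 38.6 and 11.4 CPM (-1.76), Cd209b at 18.1 and 5.03 CPM (-1.84), Cd209d at 27.9 and 12.4 CPM (-1.17) and Cd209g at 22.2 and 10.4 CPM (-1.09). Cd209a was then higher in HFD, at 14.8 CPM in CD (18 UMIs) and 30.5 CPM in HFD (91 UMIs), a log2 ratio of 1.05 (0.31 to 1.86). Of the 91 UMIs, 23 came from 1 cell. Here too, every level other than that of Cd209a in HFD lay below the upper bound of the Plac8 cells.

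In Ccl17+ or Flt3+ cells the interval of Cd209a spanned 0, from -0.26 to 0.34, while Cd209f was at 149 CPM in CD (49 UMIs) and 53.2 CPM in HFD (15 UMIs) and Cd209g at 84.9 CPM (28 UMIs) and 21.3 CPM (6 UMIs). Cd209d had 44 UMIs in CD and 20 in HFD in that gate (-0.91, -1.75 to -0.12), and Cd209b 7 and 3 UMIs (interval of the log2 ratio -3.58 to 1.14). The most UMIs in 1 cell were 23 of Cd209f and 11 of Cd209g in CD, and 7 and 3 in HFD. The gate held 8 Lyve1+ cells in CD and 2 in HFD. Without them, Cd209f was at 49.5 CPM in CD (14 UMIs) and 18.7 CPM in HFD (5 UMIs). Cd209g was then at 17.7 CPM (5 UMIs) and 14.98 CPM (4 UMIs), and Cd209d had 35 and 15 UMIs. How far the Lyve1+ cells account for these differences was not tested.

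**Figure D3:**
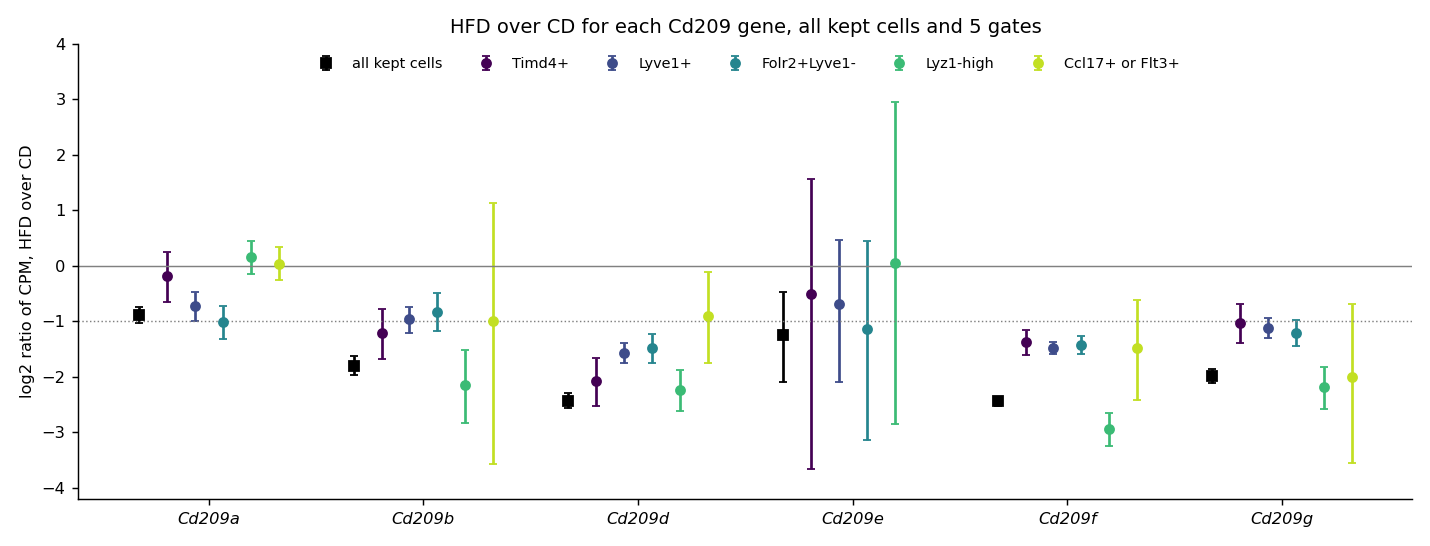
Log2 ratio of HFD over CD for each member over all kept cells and within 5 gates, with exact 95% intervals for counting error and a dotted line at -1. Cd209f, at -2.44 over all kept cells, stayed between -2.94 and -1.38 within the gates, whereas the intervals of Cd209a spanned 0 in the overlapping Timd4+, Lyz1-high and Ccl17+ or Flt3+ gates.

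Timd4+ cells of HFD numbered 72 and carried markers of other cells. The peritoneal macrophage markers Gata6, Prg4 and Icam2 summed to 77.9 CPM in Timd4+ cells of CD and 442 CPM in those of HFD. Prg4 stood at 51.1 and 335 CPM and Icam2 at 26.2 and 99.8 CPM. Gata6, at 0.595 and 7.13 CPM, lay below the 1.78 and 10.7 CPM that 3 UMIs would give. Dendritic cell markers stood at 73.2 and 592 CPM there, of which Ccl17 gave 19.6 and 474, monocyte markers at 1.19 and 157 CPM, of which Plac8 gave 0.595 and 128, and resident macrophage markers at 5865 and 2792 CPM. In this gate, Cd209d was at 739 CPM in CD and 175 CPM in HFD, a log2 ratio of -2.08 (-2.52 to -1.67). Cd209f was at 1699 and 653 CPM (-1.38), Cd209b at 388 and 168 CPM (-1.21) and Cd209g at 539 and 264 CPM (-1.03), while Cd209a was at 199 and 175 CPM (-0.19, -0.65 to 0.25) and Cd209e had 17 UMIs in CD and 2 in HFD. These values were also read without the cells that carried such markers. Without cells holding a UMI of the 3 peritoneal genes (360 CD and 62 HFD cells left), Cd209d was at -1.76, Cd209f at -1.15, Cd209b at -0.86 and Cd209g at -0.82, and Cd209a was at 0.14. Without cells of the Ccl17+ or Flt3+ gate, Cd209a was at 199 CPM in CD and 86.9 CPM in HFD, a log2 ratio of -1.20 (-1.89 to -0.58).

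Depth per cell moved with the difference in Lyve1+ cells. Among cells under 2000 UMIs (110 CD and 172 HFD cells), the family had a log2 ratio of -0.40 (-0.62 to -0.19), among cells of 2000 to under 5000 UMIs (677 and 171 cells) one of -0.94 (-1.04 to -0.84), and among cells of 5000 UMIs or more (385 and 72 cells) one of -2.33 (-2.49 to -2.17). Cd209f followed, with -0.36, -0.96 and -2.52, as did Cd209d, with -0.84, -1.16 and -3.32. Cd209g was at 0.17 (-0.40 to 0.74) in the shallowest cells and at -2.05 in the deepest. Cd209b (-0.67, -0.56 and -3.09) and Cd209a (0.00, -1.28 and -0.39) did not go lower at each step. Lyz1 was high in the deepest Lyve1+ cells, at 2274 CPM in CD and 5776 CPM in HFD, where 27.3% and 62.5% of them were also Lyz1-high, and Folr2 was at 1663 and 298 CPM. In Lyve1+ cells with fewer than 10 Lyz1 UMIs (1049 and 361 cells), the family had a log2 ratio of -1.09 (-1.17 to -1.01), with Cd209d at -1.33 and Cd209f at -1.19. Cd209a was at -0.88, Cd209g at -0.85 and Cd209b at -0.69 in these cells. How far the kinds of cells within the gate account for the ratio was not tested.

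The level of Cd209f also moved with the number of Lyve1 UMIs in a cell. In CD it was 59.1 CPM in cells without Lyve1 and Folr2 UMIs, 437 CPM with Folr2 alone, 954 CPM at 1 Lyve1 UMI, 1401 CPM at 2 to 3 and 1795 CPM at 4 to 7. In HFD the same bins had 31.2, 162, 313, 649 and 880 CPM. The HFD level was thus below the CD level in each of these bins. In the bin without Lyve1 and Folr2 UMIs, the levels of both libraries lay within the intervals of the Plac8 cells. They were not separable from that background. The bins were not matched for depth, with medians at 1 Lyve1 UMI of 3832 UMIs in CD and 2056 in HFD. Equal Lyve1 UMIs were therefore not equal Lyve1 levels. At 8 or more Lyve1 UMIs, with 92 CD and 5 HFD cells, the levels were 1715 and 1339 CPM and the interval of the log2 ratio ran from -0.87 to 0.11. Cd209a had a narrower range, from 98.7 to 187 CPM over the bins in CD, and from 54.0 to 186 CPM in HFD up to 7 Lyve1 UMIs.

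**Figure D4:**
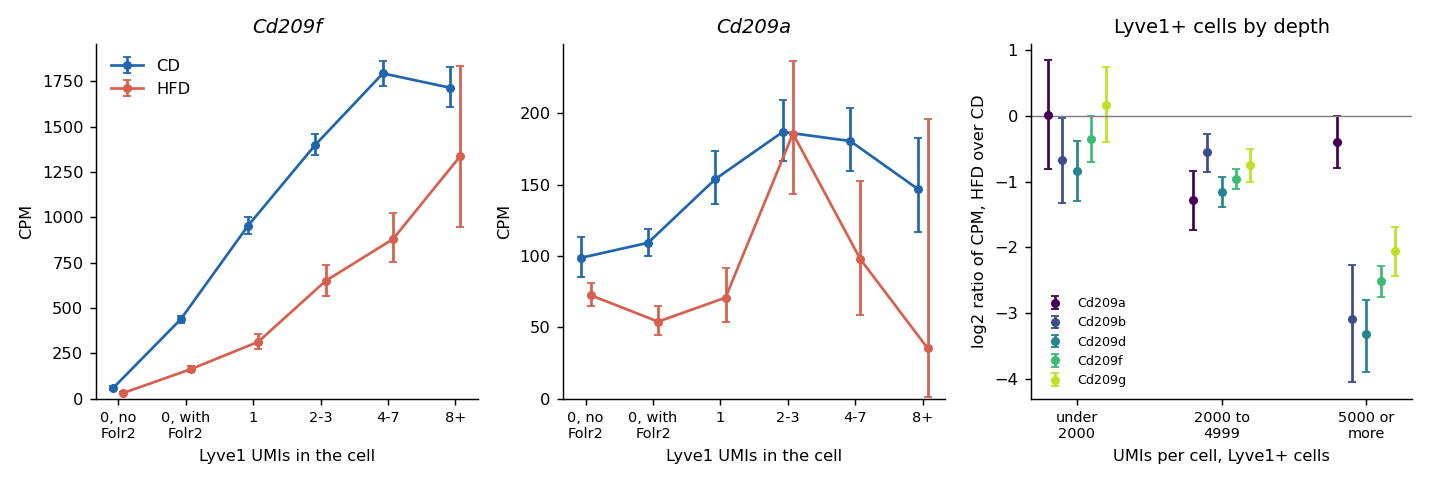
Level of Cd209f and Cd209a in CPM by the number of Lyve1 UMIs in a cell, and the log2 ratio of HFD over CD of 5 members (not Cd209e) in Lyve1+ cells by UMIs per cell, with exact 95% intervals. Cd209f was higher at each step up to 4 to 7 Lyve1 UMIs in both diets, and its ratio went from -0.36 in the shallowest to -2.52 in the deepest Lyve1+ cells.

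Members were often seen in the same cells. After thinning to 1000 UMIs, Cd209f and Cd209g were seen together in 397 CD cells, where 226 would be met if they were independent, a ratio of 1.76 (1.59 to 1.94). In HFD the pair was seen in 86 cells against 25.3, a ratio of 3.39 (2.71 to 4.19). Cd209g was found in 42.2% of CD cells with Cd209f and in 11.6% of those without, and in 32.7% and 5.57% of HFD cells. Over the 15 pairs of members, 12 in CD and 13 in HFD were seen together at 1.5 times the expected number or more, which 10.0% of 11700703 pairs of genes in CD and 9.18% of 8110378 in HFD were. The members were chosen on their levels among gates of these same cells, so nothing is read from that difference. Cd209e was not among the genes behind those shares. Pairs with Cd209e rested on at most 12 cells, and without them 8 of 10 pairs passed in both libraries. Pairs of all genes had a median ratio of 0.993 in CD and 0.995 in HFD.

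Cd209b, Cd209d, Cd209f and Cd209g were joined to each other by ratios of 1.64 to 1.77 in CD and 2.91 to 3.57 in HFD. A gene seen in fewer cells can reach a higher ratio, so the ratios of the libraries were not set against each other. Cd209a had lower ratios with Cd209f (1.39 in CD and 1.20 in HFD) and with Cd209g (1.32 and 1.27), and the HFD intervals of both spanned 1. With Cd209d, however, Cd209a had the highest ratio of the 10 pairs in CD, 1.95 (1.65 to 2.28), and 2.22 (1.36 to 3.43) in HFD. Cd209a was the least often seen of these members in thinned CD cells (12.3%), so that rank does not make it the closest pair. Within Lyve1+ cells alone, the 10 pairs without Cd209e ranged from 1.12 to 1.55 in CD, with 1 of them past 1.5, and from 0.810 to 1.82 in HFD, with 7. The share over all pairs of genes was not computed within Lyve1+ cells, so nothing is read from these counts. No member was seen in 40.8% of thinned CD cells and 70.5% of HFD cells. Of the CD cells, 12.7% held 3 members, 4.97% held 4 and 0.476% held 5, against 3.53%, 0.513% and 0.114% of the HFD cells, and all 6 were seen in 0 of the 2312 and 0 of the 1754 cells.

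**Figure D5:**
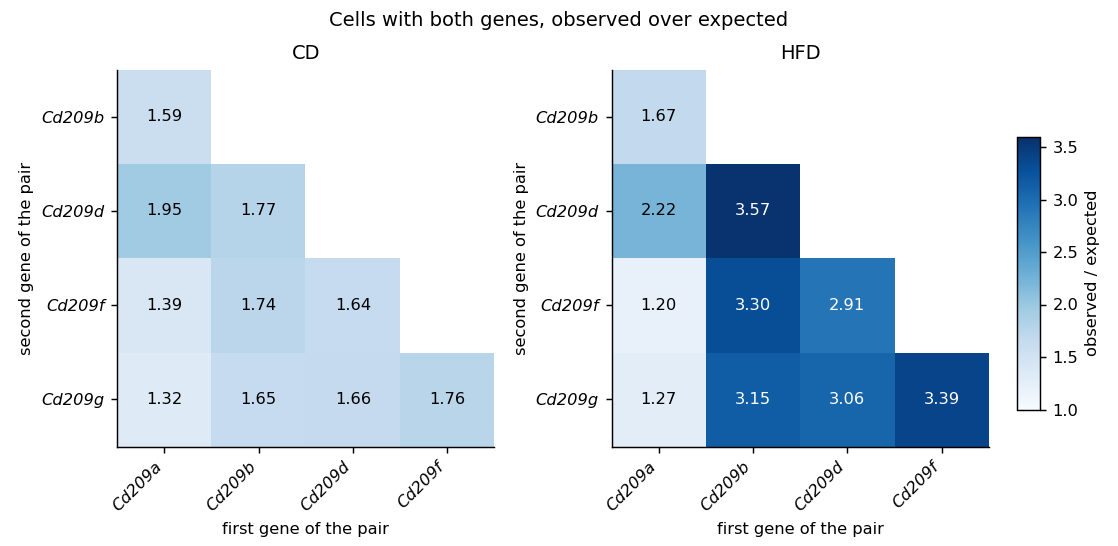
Observed over expected number of cells with both genes of a pair, for the 10 pairs of members without Cd209e after thinning to 1000 UMIs per cell, in CD and HFD. The pairs among Cd209b, Cd209d, Cd209f and Cd209g had ratios of 1.64 to 1.77 in CD and 2.91 to 3.57 in HFD, and Cd209a with Cd209f 1.39 and 1.20.

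Cells with much Cd209a were divided by whether they held a Cd209f UMI. Of the Plac8 cells, 4 of 9 in CD and 1 of 28 in HFD held one too. A single Cd209f UMI can thus not be told from free RNA, and the division does not show 2 kinds of cells. At least 5 Cd209a UMIs were found in 65 CD cells (2.75%), which held 37.2% of its UMIs, and in 29 HFD cells (1.43%), which held 50.5%. Of these, 20 CD and 25 HFD cells had no Cd209f UMI, and 10 and 12 of them were Ccl17+ or Flt3+. They had 42970 and 51498 CPM of Cd74, the invariant chain of MHC class II, 320 and 381 CPM of Napsa, and 308 and 48.9 CPM of Folr2. The other 45 CD cells had a Cd209f UMI, and in these Folr2 was at 1898 CPM, Lyve1 at 311 CPM and Cd209d at 1074 CPM. These 45 cells also had 28462 CPM of Cd74 and 204 CPM of Napsa. In all CD cells with at least 5 Cd209f UMIs, Cd74 was at 18660 CPM and Napsa at 6.54 CPM. In HFD, 4 of the 29 cells had a Cd209f UMI. In these Folr2 was at 392 CPM, Lyve1 at 196 CPM, Cd209d at 441 CPM, Cd74 at 30281 CPM, Napsa at 269 CPM and Ccl17 at 2499 CPM. The highest count of Cd209f in a cell was 82 UMIs in CD and 25 in HFD, and at least 10 were found in 330 CD cells, which held 60.6% of its UMIs, and in 19 HFD cells, which held 21.9%.

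Likeness of pattern was read as Pearson's r of log2(CPM + 10) over 12 groups, the 6 exclusive gates of each library, as a description: the groups share libraries, and the gates were set by marker genes. Cd209f and Cd209g had an r of 0.99, Cd209d and Cd209f 0.96, Cd209b and Cd209f 0.96, and Cd209a had 0.44 with Cd209d, 0.25 with Cd209f and 0.09 with Cd209b. Among 8698 other genes, those most like Cd209f were Ltc4s, which encodes leukotriene C4 synthase (0.98), Snx2, a sorting nexin of endosomes (0.98), Tns1, Cmah and Gas6, a ligand of TAM receptors (0.97). Those most like Cd209g were Snx2 (0.99), Ltc4s, Cmah, Tns1 and Fxyd2. For Cd209d they were Snx3 (0.97), Fam213b, Rfk and Fam118a, for Cd209b Nid2 (0.98), Pnrc1, Abhd6, Dnm1 and Aldh7a1, and for Cd209a Arf2 (0.91), Man2c1, Fam129a, Slamf7 and Socs3. With the 6 groups of CD alone, 2 of these 25 places kept the same gene.

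Other lectins and receptors did not all move as the family did over all kept cells. Of 23 other C-type lectins, 14 had at least 100 UMIs, and their median log2 ratio was -0.45. Clec5a (-1.67), Mgl2, a galactose-binding lectin of macrophages (-1.24), and Colec12 (-1.07) were lower, and Clec4d (3.14) and Clec4e, the Mincle gene (1.22), were higher. Of 12 endocytic and phagocytic receptors, 11 were tested, with a median of -0.63, and 4 were lower: Folr2 (-1.98), Timd4 (-1.90), Lyve1 (-1.63) and Mgl2. Msr1, a scavenger receptor, had the highest ratio of that list, 0.61. Of 9 genes of C-type lectin signalling, 8 were tested and 0 were past the limit in either direction, with a median of 0.16, Fcer1g at -0.33 and Syk at 0.32. Of 16 neighbours on the chromosome, 9 were tested, 0 were lower and Mcemp1 was higher (1.04), with Retn the lowest at -0.99 and a median of 0.10.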

How the data were processed

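The authors aligned 10x 3′ v2 reads of ATMs to mm10 (Ensembl 93) with Cell Ranger 3.0.2 and deposited UMI counts per gene and barcode for 1 CD and 1 HFD library, each of 3 pooled mice. The counts carry no normalization. The members, gates and lists were chosen with earlier results of these data known.

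Cells with 200 to 3500 genes and at most 10% mitochondrial UMIs were kept, and doublets were not called. UMIs were summed per gate and scaled to CPM. Intervals, at 95%, were exact Poisson for levels, conditional binomial for ratios of levels and Clopper-Pearson for shares, and they cover counting error and nothing else. Genes with at least 100 UMIs were compared, with a limit of 1 on the log2 scale. Cells were thinned to 1000 UMIs for shares and pairs. The rule for named genes took the 6 members, the 5 genes most like each well-counted member, and the extremes of 4 lists. One gene that this rule names is not reported here. Python 3.11.15, numpy 2.4.6, scipy 1.17.1, pandas 2.3.3 and matplotlib 3.10.9 were used. The ratio step was tested on simulated data for HFD over CD in all kept cells: of 8708 genes, 100 made 4-fold lower were called in 100% of cases and 8508 unchanged genes in 0%, and 95.5% of the latter's intervals held the true ratio. Those counts were drawn from the Poisson model that the intervals assume, without UMIs clustered in cells or differences between libraries. The test therefore bears on the calculation and not on the spread in these data. Sequences and positions are from RefSeq (GRCm38.p6) and GENCODE vM21.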

Additional observations from a re-analysis of the deposited data

Results flagged for a closer look

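Signal of the family was found in barcodes that the comparisons did not use. In 2059 CD barcodes over the mitochondrial limit, the 6 members summed to 1606 CPM (3620 UMIs), above the 1.33 CPM that 3 UMIs would give. In 1132 HFD barcodes over that limit, they summed to 668 CPM (646 UMIs), where 3 UMIs would give 3.10 CPM. The log2 ratio of HFD over CD in these barcodes was -1.26 for the family, with Cd209a at -1.68, Cd209d at -1.61, Cd209f at -1.24, Cd209b at -1.10, Cd209g at -0.98 and Cd209e at -0.69 (-2.73 to 0.97).

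Cd209c, a gene of the cluster that was not a member, was also counted in kept cells, at 4.23 CPM in CD (52 UMIs) and 4.45 CPM in HFD (36 UMIs). In these cells 3 UMIs would give 0.244 CPM in CD and 0.371 CPM in HFD.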

How the results depend on the processing

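With 1 library per diet, no replicate could be left out, and the spread between mice is unknown. No paired analysis was possible because each diet had 1 library of pooled mice. Over all kept cells, the log2 ratio of HFD over CD was below 0 for all 6 members under 12 alternatives, and the number of members at -1 or lower was 2 to 6. It was 2 with equal weight for the 6 exclusive gates (Cd209d and Cd209f). In Lyve1+ cells the number was 3, but 1 with only cells under 2000 UMIs (Cd209e, on 3 and 2 UMIs, and none of the 3) and 5 with only cells of 5000 UMIs or more, alternatives chosen after seeing the data; under 2000 UMIs, Cd209g changed sign, to 0.17, and Cd209a was at 0.00 (-0.81 to 0.84). The pairs of members in CD numbered 12, but 5 without thinning and 2 within Lyve1+ cells, settings in which the share over all pairs of genes was not computed. Of the genes most like a member, 2 of 25 places were kept with CD alone and 18 with 1 added in place of 10. The cause of these changes was not tested. The number of members higher in Lyve1+ than in Lyz1-high cells was 5 to 6 in both libraries, and the pairs in HFD 10 to 15.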
